A study of Homo sapiens with 12 samples.

Results

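To ask where crizotinib acted differently on the gene expression of SNU-5 and MKN45 cells, the change caused by the drug in SNU-5 was compared with the change in MKN45. The quantity described is the line difference, which is the log2 change with drug in SNU-5 minus the log2 change with drug in MKN45. All 12 arrays entered it, and a gene was included when a probe for it was detected (detection p under 0.05) on all 3 arrays of at least 1 group in each line. This left 9822 of the 12760 genes tested, on 16260 probes. A positive line difference means that the gene ended higher in SNU-5, relative to its own control, than in MKN45, whether it rose more, fell less or moved the other way.

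SNU-5 and MKN45 are established human gastric cancer cell lines with amplification of MET. Each was profiled on Illumina HumanHT-12 v4 arrays without drug (3 arrays) and after 24 h with 1 uM crizotinib (3 arrays). SNU-5 was grown in Iscove's medium and MKN45 in RPMI-1640, and in every value below the effect of the medium cannot be told apart from that of the line. The labels do not say whether the 3 replicates were separate cultures, and the p-values therefore measure only the spread between these samples.

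MET is the receptor tyrosine kinase for hepatocyte growth factor. When its gene is amplified, the receptor signals without ligand through the RAS-MAPK and PI3K-AKT pathways, which induce early transcription factors, feedback inhibitors of the pathway and genes of cell growth. Crizotinib blocks the kinase activity of MET and of a few related kinases. Genes that answer quickly to MAPK signaling include FOS, JUN and EGR1, while the DUSP and SPRY genes encode brakes on the same pathway.

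The arrays had 18998 to 20248 detected probes each. One SNU-5 control array (replicate 1) stood apart from the rest, with a mean signal of 557.2 against 312.5 to 499.4 on the other 11 arrays, and a correlation with the other SNU-5 controls of 0.964 to 0.974 where all other pairs within a group reached at least 0.986. Single values are therefore given with and without it where it mattered. The cells carried epithelial markers, of which 9 to 11 of 11 on the array were detected in each group, and no endothelial marker of 12. Between 3 and 5 of 14 fibroblast markers and between 3 and 5 of 15 leukocyte markers were detected in a group. Of the first, ACTA2, LUM and TAGLN were detected in both lines, COL1A2 and DCN in SNU-5 and COL1A1 and COL5A1 in MKN45. Of the leukocyte markers, CD68 and LYZ were detected in both lines, CD14 and ITGAM in SNU-5 and CD2, CD79A and LCP1 in MKN45. COL3A1, PDGFRA, PDGFRB, PTPRC and CD3E were among those not detected in any group. The summed signal of the fibroblast markers was 3422 to 4882 in the SNU-5 controls and 6216 to 7374 with drug, and 1936 to 2072 and then 2812 to 3633 in MKN45. That of the leukocyte markers was 2984 to 5649 and 2437 to 2754 in SNU-5, and 4402 to 4449 and 2952 to 3811 in MKN45. These sums are of intensities that were not normalized, so they also carry the brightness of each array. The ranges of the SNU-5 controls include the array that stood apart. The part of the fibroblast and leukocyte transcripts in the results was not tested.

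The line difference was called for 620 genes (limma, p under 0.001, Benjamini-Hochberg adjusted p under 0.05 and a difference of at least 1 on the log2 scale). Of the 9822 genes, 312 (3.18%) had a more positive and 308 (3.14%) a more negative response in SNU-5. By the same rule 1807 genes (18.4%) were called for the response of SNU-5 and 1739 (17.7%) for that of MKN45, in either direction. Without the SNU-5 control array that stood apart, 382 genes were called more positive and 326 more negative. The median line difference over all genes was 0.00545. Of the 620 genes, 487 were detected on all 12 arrays, and 52 had at least 1 group in which no array detected them. Counted by probe and not by gene, 13608 of all 16260 probes included were detected on all 12 arrays, and 530 had such a group.

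The called genes were sorted by their call in each line. Among the 312 genes with a more positive response in SNU-5, 119 were called higher with drug in SNU-5 only and 80 were called lower in MKN45 only. A further 79 were called in neither line, 14 were higher in both, 11 were lower in both and 9 were higher in SNU-5 and lower in MKN45. Among the 308 genes with a more negative response in SNU-5, 120 were called higher in MKN45 only, 82 lower in SNU-5 only and 53 in neither line. Here 30 genes were lower in both lines, 18 were higher in both and 5 were lower in SNU-5 and higher in MKN45. No call in a line does not show that the gene did not move there.

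**Figure D1:**
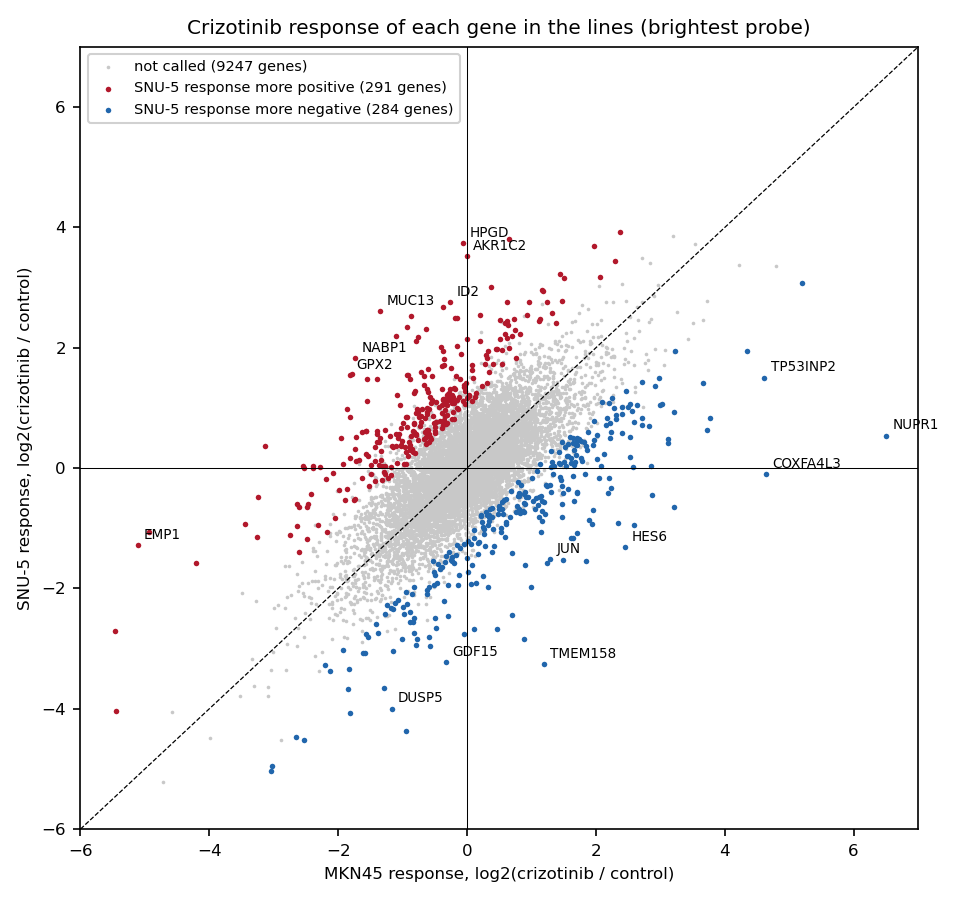
Response of each of the 9822 genes to crizotinib, log2 of drug over control, in MKN45 (x axis) and SNU-5 (y axis), each point being the brightest probe of a gene. Red and blue points are the 291 and 284 genes called for the line difference at that probe, and they lie away from the dashed line of equal response.

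The genes that moved in opposite directions gave the clearest contrast. MUC13, a transmembrane mucin of the gastrointestinal epithelium, had the largest positive difference among genes detected on all arrays. Its normalized log2 signal was 10.22, 10.36 and 9.89 on the SNU-5 control arrays and 13.06, 12.73 and 12.49 with drug. In MKN45 it was 8.68, 8.27 and 8.49 without and 7.26, 6.92 and 7.20 with drug. The groups of each line did not overlap, with MUC13 higher on every drug array of SNU-5 and lower on every drug array of MKN45. The line difference was 3.96 ± 0.27 (SE, n = 3 arrays per group, limma adjusted p = 2.185e-06).

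GPX2, the glutathione peroxidase of the gut epithelium, moved in the same way from very different starting levels. In SNU-5 its log2 signal went from 6.85, 6.84 and 6.32 to 8.23, 8.34 and 8.08, and in MKN45 from 12.86, 12.74 and 12.62 to 10.93, 11.00 and 10.82. The drug thus brought the lines closer for this gene, and the difference in response was 3.37 ± 0.24 (adjusted p = 2.295e-06). SERPINB5, which encodes maspin, started at about the same level in both lines. It was at 10.02, 10.19 and 10.46 in the SNU-5 controls and at 10.50, 10.20 and 10.18 in the MKN45 controls. With drug it was at 11.83, 11.88 and 11.65 in SNU-5 and at 8.56, 8.46 and 8.48 in MKN45. The control arrays of the lines overlapped and the drug arrays did not, and the line difference was 3.36 ± 0.22 (adjusted p = 1.75e-06).

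The other 6 genes that were higher in SNU-5 and lower in MKN45 had line differences between 2.10 and 3.57. They were NABP1 (3.57), a single-stranded DNA binding protein, RGCC (3.29), a regulator of the cell cycle, PKDCC (3.04), a secreted kinase, S100P (2.66), a calcium-binding protein, KLF5 (2.30), a transcription factor of epithelial cells, and BAMBI (2.10), a decoy receptor of TGF-beta signaling. For RGCC no MKN45 array with drug detected the transcript, and its fall there was at least 1.85-fold. For BAMBI no SNU-5 control array did, and its rise there was at least 1.7-fold. The line difference of BAMBI was 1.24 without background correction. For such a bound the dim group was set, array by array, to the dimmest level that any detected probe had there, or to its own level if higher.

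In the other direction, HES6, a bHLH factor related to the Notch effectors, fell from 8.70, 8.53 and 8.42 to 7.14, 7.25 and 7.33 in SNU-5. In MKN45 it rose from 8.71, 9.45 and 9.36 to 11.77, 11.67 and 11.44, so that the lines were close without drug and far apart with it. The line difference was -3.76 ± 0.27 (adjusted p = 2.999e-06). JUN, a subunit of the AP-1 transcription factor, fell in SNU-5 from 8.57, 8.66 and 8.71 to 6.99, 7.19 and 7.20. It rose in MKN45 from 9.56, 9.92 and 10.00 to 11.14, 11.17 and 11.05. JUN was higher in MKN45 on every array, and the drug widened this gap (line difference -2.81 ± 0.21, adjusted p = 4.128e-06). HILPDA, a lipid droplet protein (-2.81), ACKR3, an atypical chemokine receptor (-3.40), and DLK2, a relative of the Notch ligands (-3.01), were the other 3. No MKN45 control array detected ACKR3 or DLK2, and their rises there were at least 2.37-fold and at least 2.1-fold. The line difference of DLK2 was -1.90 without background correction. A fitted difference that involves a group below detection depends on the background level and is not exact.

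For reference, the promoters of 4 genes with a positive difference are shown. They hold matches to a search pattern for AP-1, the dimer of FOS and JUN proteins, or for NRF2, the regulator of antioxidant genes. Each sequence runs from 250 bases before to 50 bases after the gene start (RefSeq, GRCh38.p14), 5′ to 3′ on the strand of the gene. Capitals mark the AP-1 pattern TGANTCA in MUC13 (chr3:124934702-124935001, minus strand), SERPINB5 (chr18:63476708-63477007, plus strand) and EMP1 (chr12:13196476-13196775, plus strand). The pattern takes any base at N, so a match need not be an AP-1 site, and binding was not tested. The match is TGAGTCA in MUC13, TGAATCA in SERPINB5, and TGAGTCA and TGATTCA in EMP1. In GPX2 (chr14:64942696-64942995, minus strand) they mark the antioxidant response element TGACNNNGC, read on the opposite strand.
MUC13: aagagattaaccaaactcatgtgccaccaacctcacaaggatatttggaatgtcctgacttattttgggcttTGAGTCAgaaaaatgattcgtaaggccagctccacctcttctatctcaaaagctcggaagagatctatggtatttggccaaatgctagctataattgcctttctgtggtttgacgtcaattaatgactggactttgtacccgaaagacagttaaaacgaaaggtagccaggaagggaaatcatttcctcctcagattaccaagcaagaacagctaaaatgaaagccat
SERPINB5: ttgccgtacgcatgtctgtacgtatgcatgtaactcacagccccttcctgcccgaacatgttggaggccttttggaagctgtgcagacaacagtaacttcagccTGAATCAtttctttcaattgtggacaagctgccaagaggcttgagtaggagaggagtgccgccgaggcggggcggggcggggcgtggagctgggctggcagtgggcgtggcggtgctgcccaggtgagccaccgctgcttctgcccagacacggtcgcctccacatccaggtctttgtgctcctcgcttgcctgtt
EMP1: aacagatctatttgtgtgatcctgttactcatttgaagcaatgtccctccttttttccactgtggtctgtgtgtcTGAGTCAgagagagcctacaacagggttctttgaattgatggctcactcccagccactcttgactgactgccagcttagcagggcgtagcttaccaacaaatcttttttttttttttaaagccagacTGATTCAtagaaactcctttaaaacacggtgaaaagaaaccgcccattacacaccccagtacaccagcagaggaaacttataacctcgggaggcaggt
GPX2: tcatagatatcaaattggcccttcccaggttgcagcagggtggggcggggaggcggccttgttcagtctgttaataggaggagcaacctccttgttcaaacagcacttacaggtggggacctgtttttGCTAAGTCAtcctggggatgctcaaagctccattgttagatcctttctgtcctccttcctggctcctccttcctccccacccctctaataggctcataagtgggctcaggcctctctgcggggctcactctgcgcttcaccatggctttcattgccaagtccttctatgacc

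Promoters could be matched for 236 of the 291 genes called more positive and 219 of the 284 called more negative at their brightest probe. On either strand, TGANTCA was found in 16 (6.78%) of the first and 16 (7.31%) of the second, against 348 (4.34%) of the 8025 promoters of all genes included and 2120 (7.76%) of 27305 promoters in the table. TGACNNNGC, which can share its first letters with TGANTCA, was found in 37 (15.7%) and 36 (16.4%), against 15.7% of all genes included. The E-box CACGTG was in 17 (7.2%) and 30 (13.7%), against 10.7%, and the ATF4 element TGATGNAA in 9 (3.81%) and 3 (1.37%), against 1.66%. These are matches of letters in the printed window, with no test.

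Genes that rose in SNU-5 and stayed level in MKN45 included enzymes of lipid mediators and steroids. HPGD, which degrades prostaglandin E2, was at 5.93, 6.82 and 6.39 in the SNU-5 controls and at 10.30, 10.16 and 9.90 with drug. In MKN45 it was at 8.80, 8.11 and 8.25 without and at 8.18, 7.88 and 8.91 with drug, and these overlapped. Its line difference was 3.80 ± 0.40 (adjusted p = 4.925e-05), and the order of the lines was reversed, with SNU-5 below MKN45 without drug and above it with drug. AKR1C2, an aldo-keto reductase of steroid metabolism, rose in SNU-5 from 9.77, 9.96 and 9.43 to 13.51, 13.21 and 12.99. It was at 6.26, 6.32 and 5.88 in the MKN45 controls and at 6.18, 6.24 and 6.03 with drug, a change of -0.00 ± 0.19 (adjusted p = 0.9931). The line difference of AKR1C2 was 3.52 ± 0.27 (adjusted p = 4.578e-06). The probe may also bind transcripts of near-identical AKR1C genes.

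ID2, an inhibitor of bHLH factors, was of the same kind, with a rise of 2.75 ± 0.21 in SNU-5 and a change of -0.26 ± 0.21 in MKN45 (line difference 3.01 ± 0.29, adjusted p = 2.697e-05). SLCO2B1, an organic anion transporter (3.05), and EML1, a microtubule-binding protein (2.90), also rose in SNU-5 without a call in MKN45. So did TRIM31, a ubiquitin ligase (3.40), CDA, the cytidine deaminase (3.28), and SLC40A1, the iron exporter ferroportin (2.94), whose values in MKN45 went down by less than the threshold of a call.

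Other positive differences came from a fall in MKN45. EMP1, an epithelial membrane protein, was at 10.75, 10.43 and 10.09 in the SNU-5 controls and 9.39, 9.05 and 9.00 with drug, and at 11.60, 10.77 and 10.60 in the MKN45 controls and 6.33, 5.88 and 5.43 with drug. It fell in both lines, by 1.28 ± 0.28 in SNU-5 and by 5.11 ± 0.28 in MKN45, with a line difference of 3.83 ± 0.40 (adjusted p = 4.577e-05). FGFBP1, a carrier of fibroblast growth factors, fell in MKN45 (-3.14) and not in SNU-5 (0.37), and the difference was 3.51 ± 0.51 (adjusted p = 0.0007162).

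FOS, the partner of JUN, had a line difference of 3.88 ± 0.21 (adjusted p = 4.141e-07), opposite in sign to that of JUN. Its log2 signal was 9.41, 9.29 and 9.11 in the MKN45 controls but only 5.22, 5.33 and 5.67 in the SNU-5 controls. With drug no array of either line detected it, so the falls are bounds, at least 21.2-fold in MKN45 and at least 1.44-fold in SNU-5. Both lines ended below detection, so the size of the difference is set by the level before drug. The same holds for CLDN2, DUSP6, IPPK, MYEOV, NR0B2 and PKMYT1, the other called genes that no drug array detected at a called probe.

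**Figure D2:**
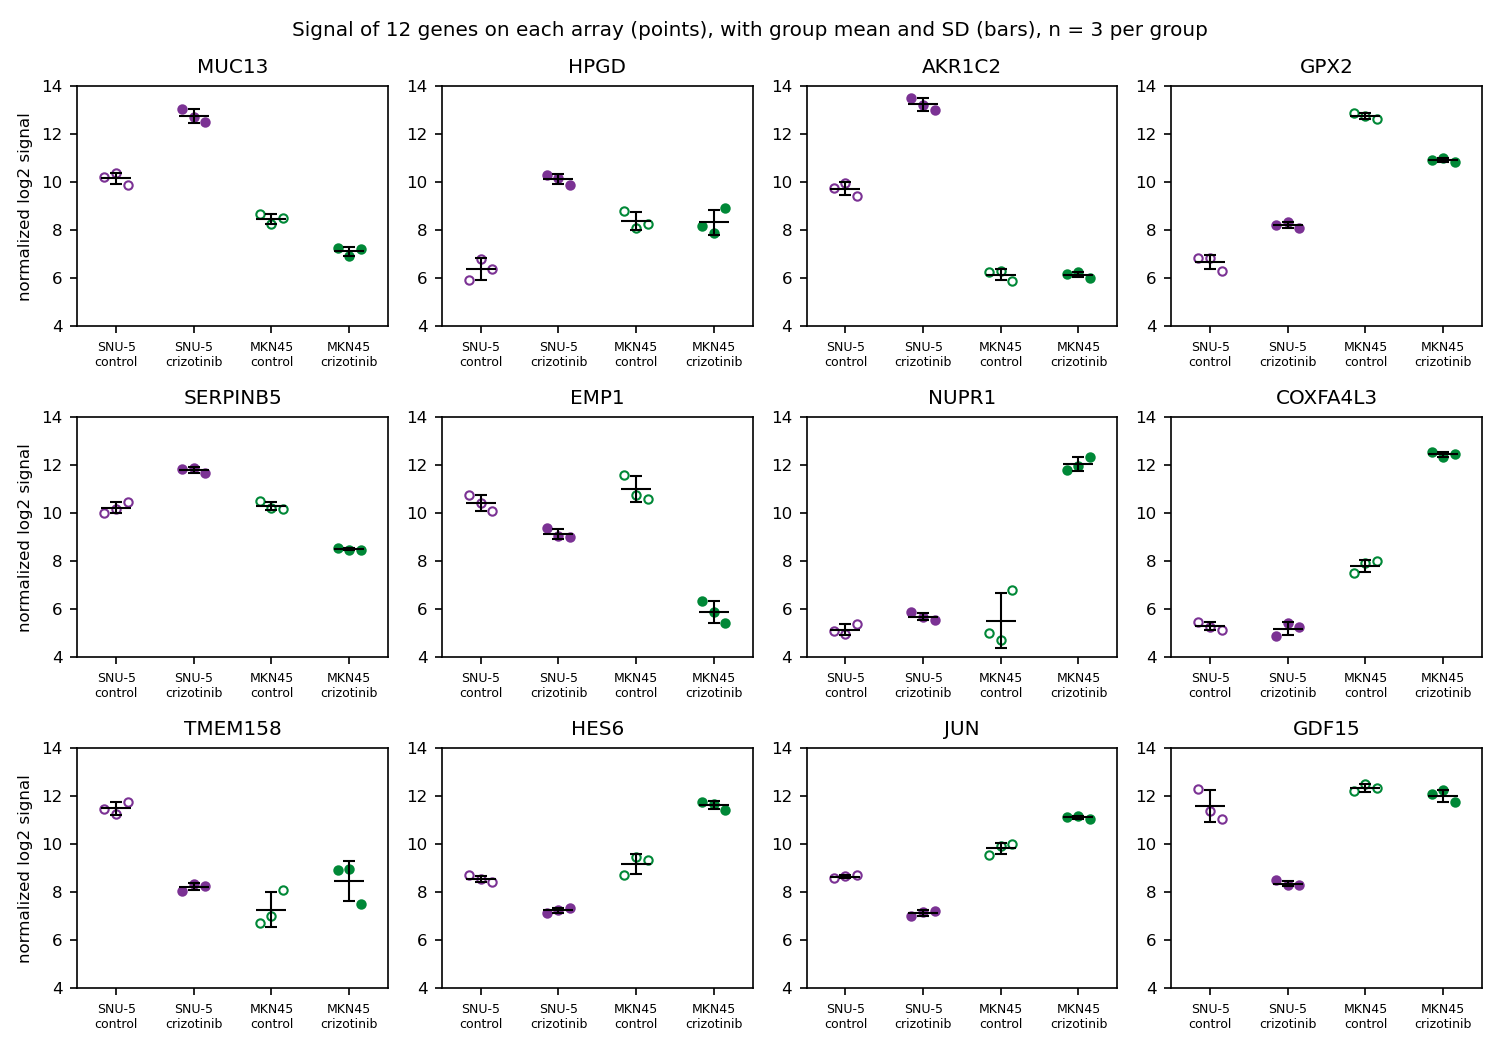
Normalized log2 signal (y axis) of 12 genes on each array, by group (x axis, SNU-5 in purple and MKN45 in green, controls open and crizotinib filled). Bars give the mean and SD of 3 arrays. MUC13, GPX2 and SERPINB5 move up in SNU-5 and down in MKN45, and HES6 and JUN the other way.

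The largest negative differences came from genes that were called higher with drug in MKN45 and not called in SNU-5. NUPR1, a stress-induced chromatin protein, was at 5.11, 4.95 and 5.40 in the SNU-5 controls and at 5.87, 5.66 and 5.56 with drug. In MKN45 it was at 5.03, 4.73 and 6.82 without and at 11.78, 11.97 and 12.35 with drug. The SNU-5 groups did not overlap, but the rise there was under the fold threshold. Every MKN45 array with drug was far above all others, and the line difference of NUPR1 was -5.97 ± 0.57 (adjusted p = 2.241e-05). COXFA4L3, a mitochondrial protein related to a subunit of cytochrome oxidase, rose in MKN45 from 7.51, 7.92 and 7.99 to 12.54, 12.35 and 12.45. In SNU-5 it was at 5.48, 5.27 and 5.13 without and at 4.90, 5.41 and 5.27 with drug (line difference -4.74 ± 0.25, adjusted p = 4.141e-07).

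TP53INP2, which acts in autophagosome formation, rose in both lines, by 1.50 ± 0.26 in SNU-5 and 4.62 ± 0.26 in MKN45. BMF, a pro-apoptotic BH3-only protein, also rose more in MKN45 (3.66 ± 0.21) than in SNU-5 (1.41 ± 0.21), a line difference of -2.24 ± 0.30 (adjusted p = 0.00031). RAP1GAP2, a regulator of the small GTPase RAP1 (-3.54), DEPTOR, an inhibitor of mTOR (-3.26), and NREP (-2.83) rose in MKN45 and were not called in SNU-5. So did NOTCH1, the Notch receptor, at -2.88 ± 0.29 (adjusted p = 3.142e-05), as did VEGFA, the angiogenic growth factor (-1.90), and XBP1, a transcription factor of the unfolded protein response (-1.76).

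Another set of negative differences came from falls in SNU-5. TMEM158, a membrane protein induced by RAS, was at 11.47, 11.24 and 11.76 in the SNU-5 controls and at 8.07, 8.35 and 8.26 with drug. In MKN45 it was at 6.72, 7.02 and 8.09 without and at 8.93, 8.96 and 7.52 with drug, which overlapped. Its line difference was -4.46 ± 0.54 (adjusted p = 0.0001565), and the gap between the lines, 4.21 without drug, was -0.24 with it. GDF15, a stress cytokine, fell in SNU-5 from 12.31, 11.39 and 11.06 to 8.49, 8.28 and 8.31. It was at 12.19, 12.51 and 12.32 in the MKN45 controls and 12.07, 12.24 and 11.74 with drug. The line difference of GDF15 was -2.91 ± 0.37 (adjusted p = 0.0002193), and -2.54 without the SNU-5 control array that stood apart, on which it was highest in its group. KRT80, an epithelial keratin, fell in SNU-5 by 4.37 and had a difference of -3.42 with and -3.06 without that array.

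**Figure D3:**
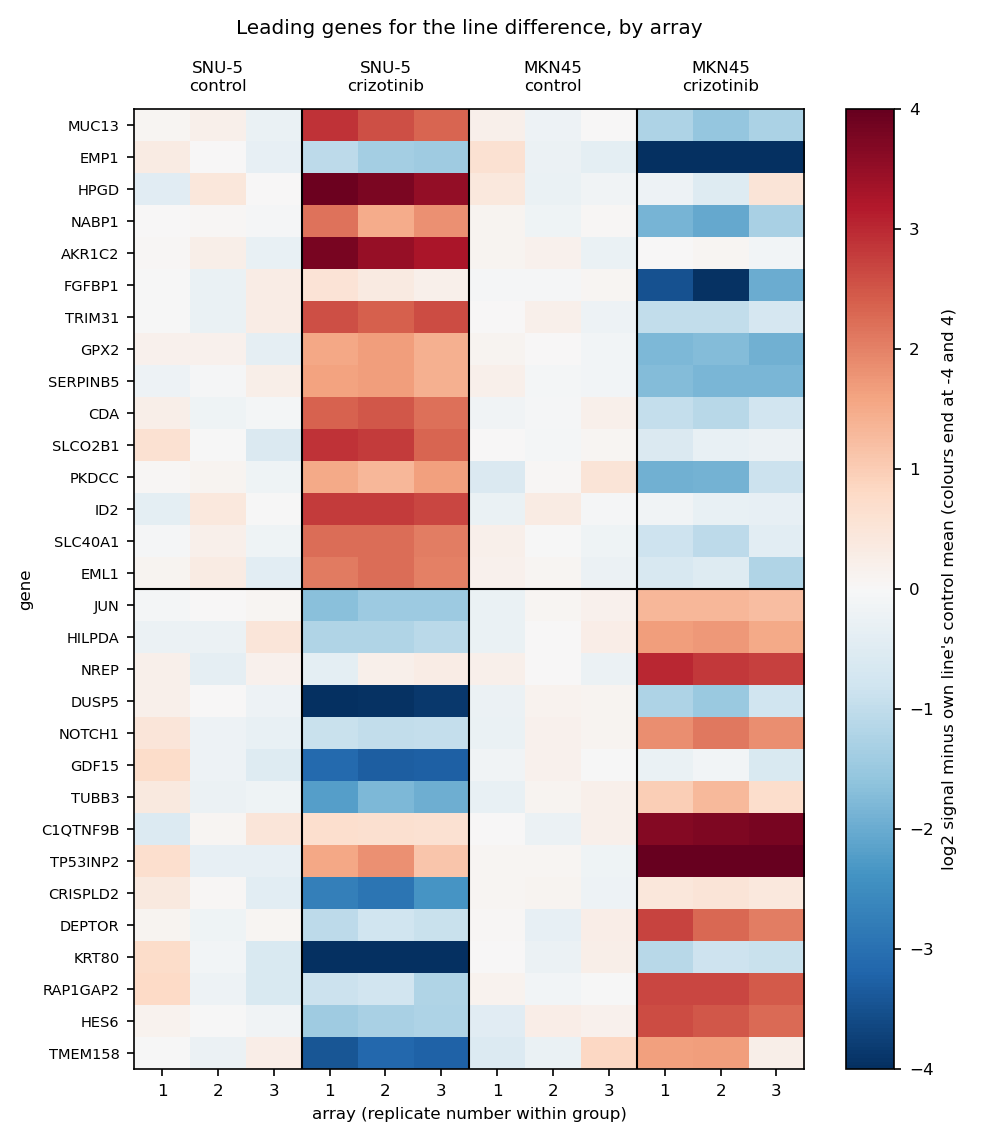
The 15 genes with the largest positive and the 15 with the largest negative line difference among called genes detected on all 12 arrays (rows), on each array (columns). Colour is the log2 signal minus the mean of the controls of the same line. MUC13, GPX2 and SERPINB5 have opposite colours in the drug arrays of the lines, whereas AKR1C2 is strong in SNU-5 only.

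The line difference equals the gap between SNU-5 and MKN45 with drug minus the gap without it, so each called gene also describes how the lines diverged or converged. The gap was called for 2169 genes (22.1%) without drug and for 2497 (25.4%) with drug. Of the 312 genes with a positive difference, 99 had a called gap with drug only and 56 a gap of the same sign that was wider with drug. For 75 the gap was called without drug only, for 23 it was narrower, for 54 it was called in neither condition and for 5 it reversed. Of the 308 genes with a negative difference these numbers were 123, 36, 77, 20, 46 and 6. More of the called genes thus lay in the classes where drug opened or widened a gap than in those where it closed or narrowed one, in both directions, which is a count with no test.

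The 11 reversals, each with a called gap in both conditions, were CDA, HPGD, PLCE1, PRODH and TRIM31, lower in SNU-5 without drug and higher with it, and ANO3, CDC42EP2, CRISPLD2, DEPTOR, KRT80 and SSUH2, which went the other way. Without background correction the line difference was 1.86 in place of 2.95 for PRODH and -2.05 in place of -3.13 for CDC42EP2. It was -2.59 in place of -3.86 for ANO3 and -2.40 in place of -3.14 for CRISPLD2. For CDA, HPGD, TRIM31, DEPTOR and KRT80 it was smaller in size too. The gap of TRIM31 was -1.54 without and 1.85 with drug, and that of DEPTOR 2.20 and -1.06. CLDN7, a tight junction claudin, and S100P are examples of a gap that was called without drug only, at -1.41 and 0.67 for CLDN7 and at -2.31 and 0.36 for S100P. EMP1, SERPINB5 and HES6 are examples of a gap called with drug only.

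**Figure D4:**
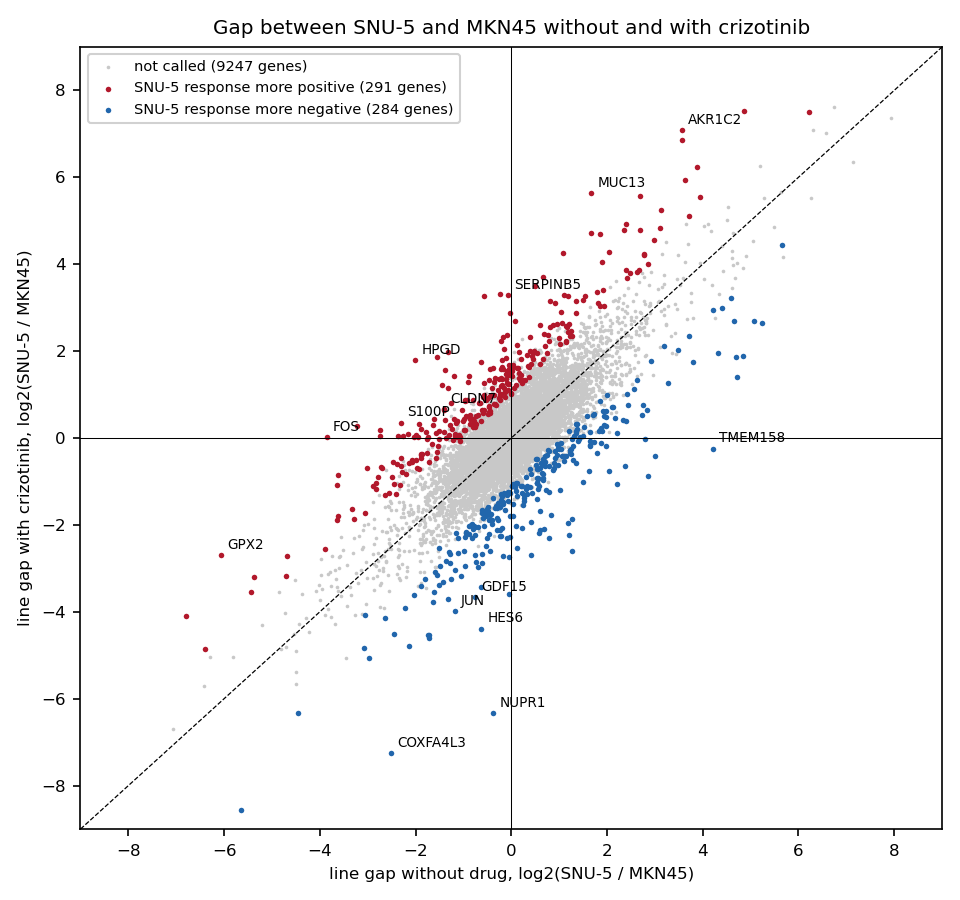
Gap between the lines, log2 of SNU-5 over MKN45, without drug (x axis) and with crizotinib (y axis) for each of the 9822 genes at its brightest probe. Coloured points were called for the line difference, and the vertical distance from the dashed line is that difference.

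Gene lists were then counted at the brightest probe of each gene, a member counting when the adjusted p of its line difference was under 0.05. Over all 9822 genes 528 (5.38%) counted as more positive and 539 (5.49%) as more negative. Genes of MAPK feedback and output had 7 of 17 members more negative in SNU-5 and 1 more positive, with a median difference of -0.77. With drug, SNU-5 had a median change of -3.12 over these genes and MKN45 of -2.35, and of the 7 all but LIF were called lower in both lines. LIF, a cytokine (-1.99), was called lower in SNU-5 and not in MKN45. DUSP5, a phosphatase of ERK, went from 11.31, 11.12 and 10.92 to 6.95, 7.15 and 7.25 in SNU-5 and from 6.19, 6.54 and 6.51 to 5.19, 4.92 and 5.61 in MKN45 (line difference -2.83 ± 0.27, adjusted p = 2.319e-05). The drug arrays of SNU-5 were still above the controls of MKN45, where DUSP5 was dim before drug. Whether this low level limited its fall in MKN45 was not tested, so its line difference does not rank the strength of the responses. FOSL1, an AP-1 subunit (-1.81), SPRY4 (-1.92) and SPRY2 (-1.18), inhibitors of receptor signaling, PHLDA1 (-1.08) and CCND1, the cyclin D1 gene (-0.90), were the others. No MKN45 array with drug detected SPRY4, so its fall there is only a bound (at least 5.91-fold) and the lines cannot be ordered by the size of their fall. SPRY1 went against the list, with a fall of 2.47 in MKN45 and a change of -0.60, not called, in SNU-5 (line difference 1.88 ± 0.24, adjusted p = 0.0002658).

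Immediate early genes were split, with 4 of 19 more positive and 5 more negative. FOS, KLF2 (2.42), KLF4 (1.49) and ZFP36 (1.21) were more positive in SNU-5. EGR1 (-2.15), JUN (-2.81), DUSP1 (-1.60), ATF3 (-1.54) and KLF10 (-1.42) were more negative. EGR1, a zinc finger factor induced by MAPK signaling, fell by 2.94 ± 0.17 in SNU-5, and its change in MKN45 was -0.79 ± 0.17, under the fold threshold.

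Targets of p53 had 7 of 21 members more negative in SNU-5 and 1, PERP, more positive (1.26). CDKN1A, the p21 inhibitor of cyclin-dependent kinases, was at 10.20, 10.70 and 10.19 in the SNU-5 controls and at 9.93, 9.83 and 9.89 with drug, and at 10.86, 11.47 and 11.76 in the MKN45 controls and 12.57, 12.72 and 12.15 with drug. The groups of each line did not overlap, but only the rise in MKN45 was called, and the line difference was -1.60 ± 0.32 (adjusted p = 0.006684). Without MKN45 drug replicate 1 or 2 the adjusted p of CDKN1A was 0.0228 and 0.0227, and it was then no longer called. TP53I3, a quinone oxidoreductase, rose in MKN45 (1.87) and was at 0.60 in SNU-5. AEN, a nuclease (-1.92), TIGAR, a phosphatase of glycolysis (-1.43), GADD45A (-1.31) and TNFRSF10B, a TRAIL receptor (-1.21), differed too, together with GDF15. TNFRSF10B was no longer called on leaving out any SNU-5 drug array, any MKN45 control array or MKN45 drug replicate 1 or 2 (adjusted p from 0.024 to 0.0422, limma). TIGAR was not called without background correction (-0.80, adjusted p = 0.0173).

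Genes of ribosome assembly and nucleotide synthesis were counted next. Of 31 genes of nucleolar ribosome assembly 6 were more negative in SNU-5 and 0 more positive, with a median of -0.388. They were BOP1 (-1.90), BYSL (-1.72), RRS1 (-1.46), NPM3 (-1.13), NOP16 (-1.11) and DKC1 (-0.72), and all 6 were called lower in SNU-5, 4 of them in MKN45 too. RRS1 was at 9.06, 9.03 and 9.03 in the SNU-5 controls and at 5.99, 6.04 and 5.86 with drug, against 8.17, 8.05 and 8.24 and then 6.33, 6.54 and 6.73 in MKN45. Of 32 genes of polyamine, nucleotide and one-carbon metabolism 7 were more negative, among them CTPS1, the CTP synthase (-1.82), and NME1 (-1.25), and SAT1, which breaks polyamines down, was more positive (1.42). No SNU-5 array with drug detected CTPS1 (a fall of at least 20.7-fold), and its difference was -1.09 without background correction.

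The clustered histone genes had 6 of 19 more negative, 0 more positive and a median of -0.947. The 6 became 3 without SNU-5 drug replicate 1, MKN45 control replicate 1 or 2 or MKN45 drug replicate 1, and 9 without the SNU-5 control array that stood apart. Their median change with drug was 1.31 in SNU-5 and 2.41 in MKN45. H2BC21 rose from 7.49, 7.20 and 6.96 to 8.44, 8.53 and 8.76 in SNU-5 and from 5.94, 5.68 and 6.35 to 9.05, 8.90 and 8.78 in MKN45 (line difference -1.56 ± 0.27, adjusted p = 0.002603). Histone genes are near-identical copies, so a probe may bind several of them. At an unadjusted p under 0.05 no histone and no nucleolar gene was more positive, and 11 and 13 were more negative. The share of all genes at that looser threshold was not counted, here or for the lists below. Counts at an unadjusted p therefore have no background to be read against. UHRF1, which maintains DNA methylation, fell in both lines and further in SNU-5 (line difference -2.26 ± 0.37 with and -1.92 without the SNU-5 control array that stood apart).

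Of 16 aldo-keto reductases, UGT and related enzymes 8 were more positive in SNU-5 and 3 more negative, with a median of 0.88. Besides AKR1C2 the first were AKR1C3 (1.75), AKR1C4 (1.83), ALDH3A1 (1.75), CYP1B1 (1.73), CYP2S1 (1.64), CYP3A5 (2.23) and UGT1A6 (1.55). SULT2B1, a sterol sulfotransferase (-2.80), rose in MKN45 only, and UGT2B17 (-2.39) and UGT2B11 (-1.95) rose in both lines and more in MKN45. Probes of the UGT2B and AKR1C genes may share transcripts. Targets of NRF2 had 5 of 26 more positive and 1 more negative (median 0.538). The gene of NRF2 itself, NFE2L2, was among them (1.18), as was ME1, the malic enzyme (2.06), and the exception was ABCC3 (-1.36). Without the SNU-5 control array that stood apart 8 were more positive.

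Fatty acid oxidation and ketogenesis had 7 of 26 genes more positive, 0 more negative and a median of 0.445. PDK4, which restrains entry of pyruvate into the citric acid cycle, rose in SNU-5 from 8.54, 9.00 and 8.55 to 11.62, 11.39 and 11.35. In MKN45 it was at 6.12, 5.03 and 5.58 without and at 6.33, 5.81 and 6.46 with drug, and these overlapped (line difference 2.13 ± 0.36, adjusted p = 0.002041). The others were BDH1 (1.30), ACAA2 (1.18), ETFDH (1.16), ACSL5 (1.06), PPARG (0.97) and ACADS (0.92). Oxidative phosphorylation had 4 of 33 more positive and glycolysis 3 of 25, among them HK2, a hexokinase (1.68), with 0 more negative in either. At an unadjusted p under 0.05 no gene of fatty acid oxidation or oxidative phosphorylation and 2 of glycolysis were more negative. The count of 7 for fatty acid oxidation was 6 to 8 on leaving out 1 array, but those for oxidative phosphorylation and glycolysis rested on single arrays. On leaving out 1 array the count for oxidative phosphorylation was 0 (without SNU-5 drug replicate 1 or MKN45 drug replicate 2) to 6 (without the SNU-5 control array that stood apart). For glycolysis it was 1 (without SNU-5 control replicate 2, SNU-5 drug replicate 2 or MKN45 drug replicate 1 or 2) to 7 (without SNU-5 control replicate 3).

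Claudins and junction genes had 6 of 19 more positive and 0 more negative (median 0.426). CLDN7 rose in SNU-5 from 9.16, 9.33 and 9.33 to 11.02, 11.08 and 10.87, while it was at 10.50, 10.91 and 10.65 in the MKN45 controls and at 10.25, 10.47 and 10.26 with drug (line difference 2.08 ± 0.21, adjusted p = 3.992e-05). GJB2, a connexin (1.83), CLDN1 (1.47) and PKP3, a plakophilin (1.25), were called lower in MKN45 and not called in SNU-5. DSG2, a desmosomal cadherin (1.41), was called in neither line, and CLDN2 had no detected array with drug. In gastric and intestinal differentiation 4 of 12 genes were more positive (MUC13, TSPAN8, AGR2 and MUC1) and 1, SPINK1, more negative (-2.93). MUC1 was no longer called without SNU-5 drug replicate 3, any MKN45 control array or MKN45 drug replicate 1 or 3 (adjusted p from 0.0192 to 0.0258, limma). AGR2, a secretory disulfide isomerase, had a difference of 1.91 ± 0.20 (adjusted p = 5.774e-05). Proteases and genes of plasminogen activation had 5 of 15 more positive and 1, PLAUR, more negative. F3, the tissue factor (2.76), MMP7, matrilysin (2.29), and PLAU, urokinase (2.00), fell in MKN45 while their changes in SNU-5 were -0.48, 0.01 and -0.08. No MKN45 array with drug detected MMP7, and without background correction it was not called (1.48, adjusted p = 0.0319).

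In the PI3K pathway 6 of 24 brakes and FOXO targets were more positive and 5 more negative, and 3 were more negative without SNU-5 drug replicate 1, MKN45 control replicate 2 or MKN45 drug replicate 1. IRS2, the insulin receptor substrate (2.31), rose in SNU-5 and IRS1 (-1.47) fell there, and neither was called in MKN45. FOXO1 (1.41) and FOXO4 (1.26) were more positive. In TGF-beta and BMP signaling ID1 (1.42), ID2, BAMBI and TGFBR3 (1.43) were more positive, and SMAD3 (-1.66) and GDF15 more negative, of 13 genes.

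**Figure D5:**
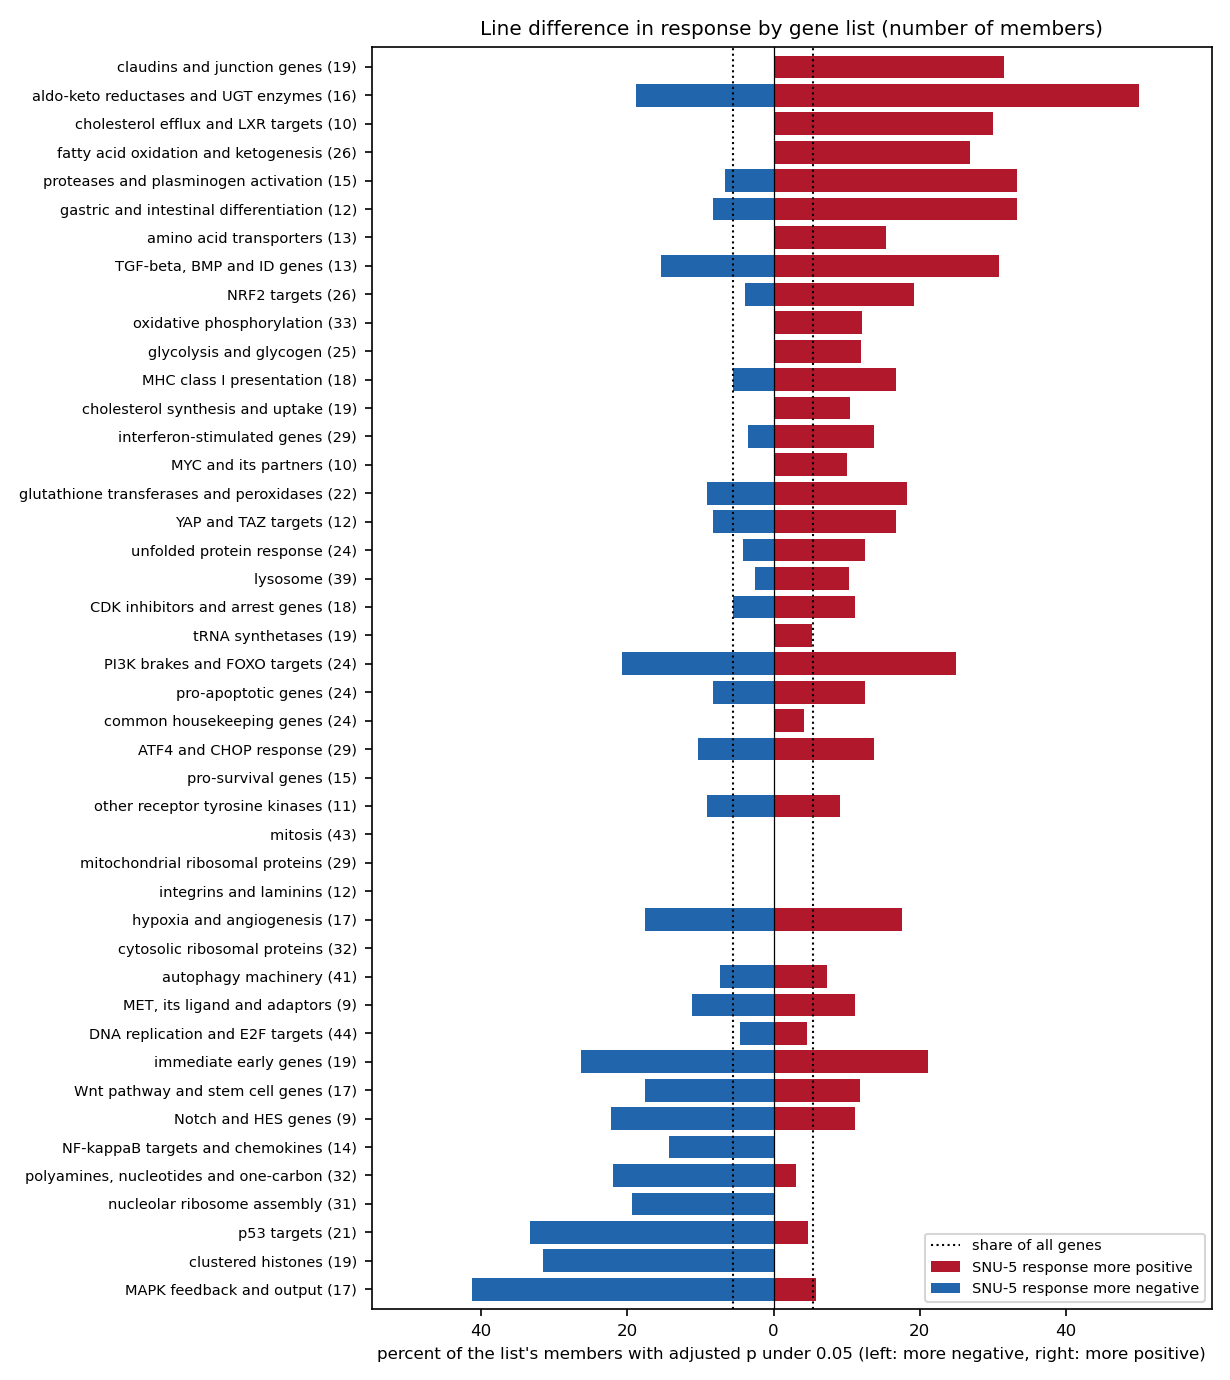
Share of each gene list with at least 9 members (rows, number of members in parentheses) with an adjusted p of the line difference under 0.05, in percent, to the right for a more positive and to the left for a more negative response in SNU-5. Dotted lines are the shares over all genes, 5.38% and 5.49%. The lists of MAPK feedback, histones and p53 targets reach farthest to the left, and that of aldo-keto reductases and UGT enzymes farthest to the right.

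Other lists had few or no members with a line difference. None of 43 mitosis genes, 32 cytosolic ribosomal proteins, 29 mitochondrial ribosomal proteins, 15 pro-survival genes or 12 integrins and laminins passed (limma, adjusted p under 0.05). At an unadjusted p under 0.05, 3 mitosis genes were more positive and 3 more negative, as were 2 and 4 mitochondrial ribosomal proteins, 0 and 2 cytosolic ones, 1 and 1 pro-survival genes, and 0 and 1 integrins or laminins. For mitosis genes the median change was -1.41 in SNU-5 and -1.49 in MKN45. Without the SNU-5 control array that stood apart 1 mitosis gene, 1 cytosolic ribosomal protein and 1 integrin or laminin gene passed. DNA replication had 2 of 44 in each direction, and without that array 3 more positive and 4 more negative. Without SNU-5 drug replicate 1 it had 1 more negative. Leaving out any other array gave at most 1 passing gene in a direction for the mitosis, ribosomal and integrin lists. Of 41 genes of the autophagy machinery 3 were more positive and 3 more negative, close to the shares over all genes, and leaving out 1 array gave 1 to 4 and 2 to 4. Among lysosome genes 4 of 39 were more positive, led by NEU1, a sialidase (2.37), and 1, CLN3, was more negative (-1.62). Of 24 pro-apoptotic genes BNIP3, BNIP3L (2.18) and TNFSF10 (1.72) were more positive, and BMF and TNFRSF10B more negative. Of 24 genes of the unfolded protein response CANX, CRELD2 (1.22) and HSPA5 (0.97) were more positive, and only XBP1 more negative. The calls of TNFSF10 and CANX were each lost in 13 of the 20 settings run gene by gene.

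ATG5, a gene of autophagosome formation, was at 6.36, 6.75 and 7.04 in the SNU-5 controls and at 7.55, 7.12 and 7.37 with drug. In MKN45 it was at 5.63, 5.46 and 5.47 without and at 4.99, 4.87 and 4.83 with drug. Neither response reached the fold threshold, but the groups did not overlap in either line, and the line difference was called (1.25 ± 0.25, adjusted p = 0.006952). It was not called without SNU-5 drug replicate 1 (1.15, adjusted p = 0.0254) or without background correction (0.80, adjusted p = 0.0154), and only 1 MKN45 array with drug detected it. MET itself differed by 0.68 ± 0.29 (adjusted p = 0.1807, 95% interval 0.05 to 1.30), MYC by 0.53 ± 0.37 (adjusted p = 0.4503, and -0.04 without background correction) and BCL2L11, which encodes BIM, by -0.35 ± 0.31 (adjusted p = 0.5763). For these genes a difference between the lines was not shown, and the intervals do not show that it was absent.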

How the data were processed

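Whole-genome expression was measured on Illumina HumanHT-12 v4 arrays in 12 samples. The deposited table held the probe intensity of each array, not normalized, with a detection p-value per probe. The authors also deposited normalized log2 values, which differed from quantile-normalized intensities by at most 0.005 and were used as an alternative. Intensities were background-corrected and quantile-normalized with neqc in limma 3.58.1 (R 4.3.3, offset 16). Probes detected (detection p under 0.05) on at least 3 arrays, 23525 in all, entered 1 limma fit of the 4 group means, with Benjamini-Hochberg adjustment over all of them. The gene of a probe came from the platform annotation. Of the 47323 probes 30113 had 1 symbol, 8 several and 17202 none, and 3430 of the 16260 probes included had none. A gene was called if any of its probes was called, and its values are those of its brightest probe. Array number limits the precision (3 per group), and no read depth applies.

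Genes named were the 15 largest differences in each direction among called genes detected on all arrays, the 10 largest among other called genes, genes called in opposite directions, up to 4 of each list by adjusted p, and genes the study's text names, and the text gives part of these. Further members of a list were named after their values were seen. The comparison, its genes and its lists were chosen with earlier results of these data known. The fit was tested on simulated data with known changes. Alternatives covered normalization, probe filters, array weights, replicate blocks, the fold threshold and leaving out each array.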

Additional observations from a re-analysis of the deposited data

Results flagged for a closer look

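The 312 genes with a more positive and the 308 with a more negative response in SNU-5 are listed here because the response to crizotinib itself differed between the lines by the limma test of the difference. Of these, 14 were called in opposite directions in the lines. The line difference was 3.96 for MUC13, 3.57 for NABP1, 3.37 for GPX2, 3.36 for SERPINB5, 3.29 for RGCC, 3.04 for PKDCC, 2.66 for S100P, 2.30 for KLF5 and 2.10 for BAMBI, which rose in SNU-5 and fell in MKN45. It was -3.76 for HES6, -3.40 for ACKR3, -3.01 for DLK2, -2.81 for HILPDA and -2.81 for JUN, which fell in SNU-5 and rose in MKN45. For RGCC, BAMBI, ACKR3 and DLK2 no array of 1 group detected the transcript, so these 4 values depend on the background level and are not exact. Outside the named genes, 121 probes without a gene name in the annotation were called for the line difference, 55 more positive and 66 more negative.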

How the results depend on the processing

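No named gene that was called changed sign in the 20 settings run gene by gene, while ACTB, ATG7, CD68, CDH1, MYC and TAGLN, none of them called, did in at least 1. The order of the counts in the directions was not stable. It changed with a replicate block, when the fold threshold was itself tested and on leaving out some single arrays. Without SNU-5 control replicate 3, for example, the counts were 302 and 361. Counts within small lists moved by more than 1.5 times in several settings. The count of genes with a more positive and a more negative response in SNU-5 was 533 and 480 with array weights, whose estimation stopped before it converged, 200 and 199 without moderation of the variances, and 43 and 46 when a difference above the fold threshold was itself tested (treat). By that last test 505 genes were called for the response of SNU-5, 469 for that of MKN45, 851 for the gap without drug and 1065 for the gap with drug. The cause of these shifts was not tested, other than that treat asks for more than a difference from 0. Leaving out 1 array gave 234 to 382 and 223 to 361 genes, 1569 to 1950 for the response of SNU-5, 1534 to 1871 for that of MKN45, 1961 to 2294 for the gap without drug and 2262 to 2662 for the gap with drug. Replicate numbers were not taken as pairing, since only 4 of 6 correlations of same-numbered samples were over 0.1. With the replicate number as a block within a line the counts were 306 and 315, and as a block over all 4 groups 327 and 348. Of 140 named genes that were called, 100 kept their call in all of those 20 settings, which do not include treat, the stricter detection limit, the dropped fold threshold or the brightest probe alone. With 3 arrays per group, a small line difference can be missed, and dim probes give only bounds.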

Other observations

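Among ligands of the ERBB receptors, a receptor family related to MET in its signaling, 2 of 3 genes included were more positive in SNU-5. HBEGF fell in both lines, by 1.12 in SNU-5 and by 2.74 in MKN45. NRG4 rose in SNU-5 (1.61) and was at 0.35 in MKN45. The other ligand, TGFA, had a line difference of -0.93 and did not pass at an adjusted p under 0.05 (limma). Of 29 interferon-stimulated genes 4 were more positive (HERC5, IFI27, IFIT2 and OASL) and 1, ISG15, more negative. The line difference of OASL was 1.72, and 1.13 without background correction. Of 18 genes of antigen presentation HLA-C, HLA-F and HLA-G were more positive and HLA-DMA more negative. The count of those more positive was 5 without SNU-5 control replicate 1, the array that stood apart, and 1 without SNU-5 drug replicate 1 or 2 or MKN45 control replicate 3. HLA probes may bind several of these near-identical genes.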
